A study of Mus musculus with 28 samples.

Results

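The glucocorticoid receptor gene *Nr3c1* and 5 genes that the receptor is known to induce, *Fkbp5*, *Tsc22d3*, *Sgk1*, *Klf9* and *Ddit4*, were followed across hippocampal microglia of 28 mice. The 6 genes were taken by name from the 48587 gene symbols of a table of RNA sequencing read counts, and all 6 passed the filter on low counts, as did 15298 genes in all. Microglia were enriched on a density gradient and sorted by FACS as CD11b+CD45low cells outside a dump gate for lineage markers that included Ly6C and Ly6G, and each library came from 1 mouse of 16 weeks. 5xFAD mice are a model of Alzheimer's disease in which human APP and PS1 with familial mutations are expressed from the neuron-specific Thy-1 promoter. According to the methods of the study, 5xFAD mice were heterozygous males on a C57BL/6 J background, and WT mice were their littermates without the transgenes.

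There were 5 WT and 3 5xFAD mice in SPF housing, 4 WT and 5 5xFAD mice in GF housing, and 5 WT and 6 5xFAD mice in the ABX condition. SPF mice were kept free of specific pathogens and carried a gut microbiota, GF mice were germ-free, and ABX mice were SPF mice that received antibiotics for the last 8 weeks. The antibiotics were vancomycin, cefoxitin, gentamicin and metronidazol, given together in the drinking water. GF mice of both genotypes came from another animal facility than all other mice, so germ-free housing and facility cannot be told apart. Mice carry the title of their library as a name. FAD_GF_201 is a 5xFAD mouse by title and genotype and a WT mouse by its description. It was analysed as a GF 5xFAD mouse, and results that turned on it are also given without it.

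The sources give no batch, but the descriptions of the libraries follow 3 styles of numbering. All SPF WT and ABX WT libraries share the first style, the SPF 5xFAD libraries and FAD_ABX_1151 the second, and the GF libraries and the other 5 ABX 5xFAD libraries the third. Style and genotype therefore cannot be told apart in SPF and ABX mice, whereas the GF groups share 1 style. Style and housing cannot be told apart between GF and SPF mice of either genotype, or between GF WT and ABX WT mice. Library totals ran from 14441610 to 29977395 reads. Summed microglia markers (*P2ry12*, *Tmem119*, *Cx3cr1*, *Csf1r* and *Sall1*) held between 23600 and 40500 CPM (read counts scaled by library size) in every library, whereas the sums of 5 markers each ran from 153 to 329 for astrocytes, from 131 to 204 for oligodendrocytes and from 8.12 to 52.3 for endothelial cells, and reached at most 18.3 for neurons and 2.96 for T cells. Markers of neutrophils reached 56.5 to 221 CPM in SPF 5xFAD mice and 117 in FAD_ABX_1151, and at most 0.285 in the other libraries, although Ly6G-positive cells were gated out.

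The glucocorticoid receptor rests in the cytoplasm in a complex with HSP90 chaperones and immunophilins. When it binds cortisol, or corticosterone in mice, it moves to the nucleus and binds glucocorticoid response elements, which are palindromes of 2 half-sites 3 bases apart. It then induces a set of genes that includes its own brake *Fkbp5*, and it represses many inflammatory genes. Microglia are rich in this receptor, and corticosterone, which peaks each day before the active phase and after stress, is known to dampen their inflammatory response.

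Of the 6 genes, *Sgk1* was the most abundant per transcript length, with a median of 195 RPKM over the 28 mice (read counts scaled by library size and exon length). *Nr3c1* followed at 35.3, *Tsc22d3* at 22.9 and *Fkbp5* at 18.9 RPKM. *Ddit4* at 1.54 and *Klf9* at 0.37 RPKM were low. All further levels are CPM, read counts scaled to a common library size with TMM factors, and differences are log2 fold changes of edgeR's quasi-likelihood fit with their SE. The p-values were adjusted by the Benjamini-Hochberg method across the 15298 tested genes, with a threshold of 0.05. In the F test across all 6 groups, 5 of the 6 genes passed, *Klf9* being the exception with an adjusted p of 0.515, where 33.2% of all genes passed.

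**Figure D1:**
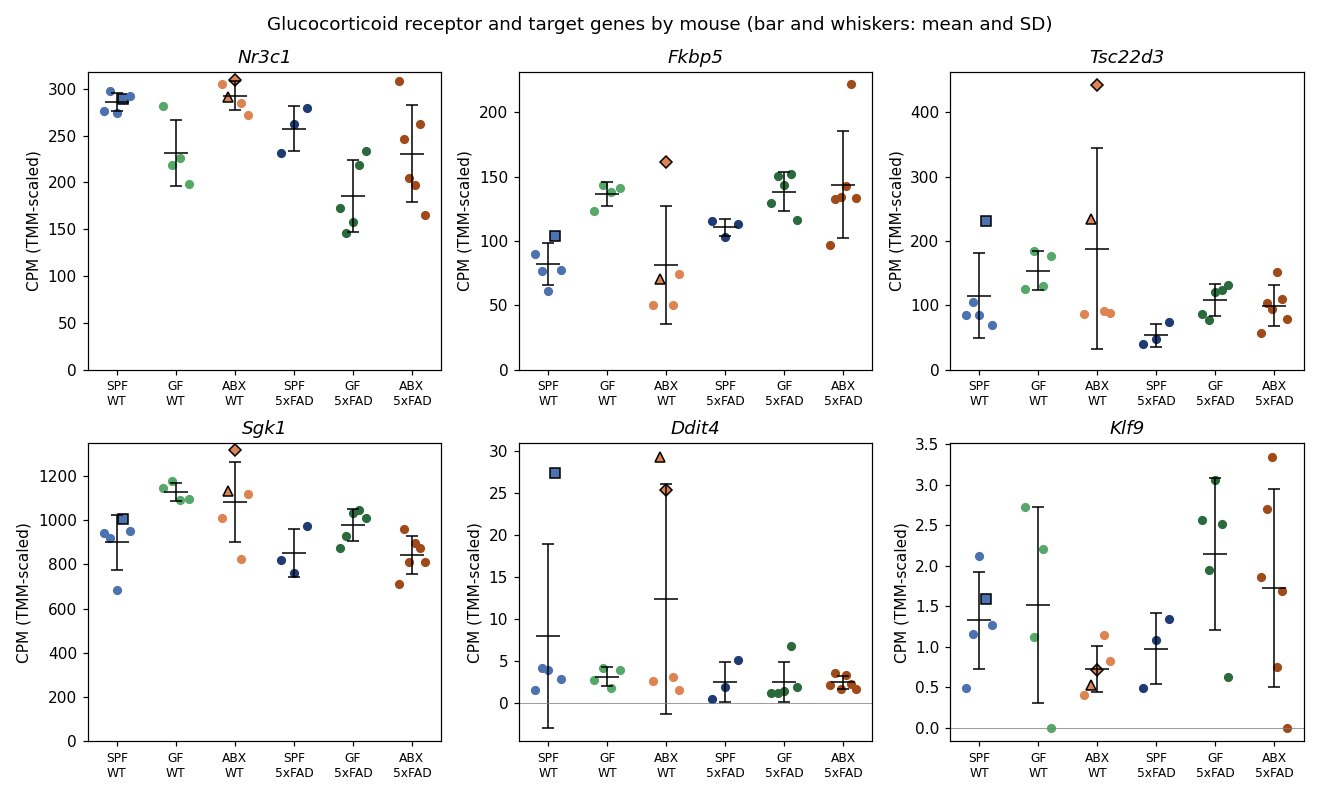
CPM of the 6 genes (linear y axes) in each of the 28 mice by group (x axis). Points are mice, the black bar and whiskers are the mean and SD, and whiskers below 0 only reflect that spread. Outlined symbols mark WT_SPF_928 (square), WT_ABX_910 (triangle) and WT_ABX_911 (diamond), which hold the 3 highest values of *Ddit4*, between 25.3 and 29.3 CPM.

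*Nr3c1* encodes the receptor itself. In SPF mice it stood at 276, 298, 274, 289 and 292 CPM in WT and at 230.96, 262 and 279 CPM in 5xFAD mice. In GF mice it stood at 282, 219, 227 and 198.8 CPM in WT and at 173, 146, 158, 218 and 234 CPM in 5xFAD mice. In ABX mice it stood at 305, 291, 310, 285 and 272 CPM in WT, and its lowest, median and highest values in 5xFAD mice were 165, 226 and 308 CPM. GF 5xFAD mice thus held the lowest group mean, 186 ± 38.3 CPM (SD, n = 5), and ABX WT mice the highest, 293 ± 15.3 CPM (SD, n = 5). Between neighbours in the order of the 6 group means, the gap was larger than the larger SD only between SPF WT and SPF 5xFAD mice.

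Among 5xFAD mice, *Nr3c1* was lower in GF than in SPF housing by a log2 fold change of -0.47 (SE 0.15 and adjusted p = 0.0366). The 2 groups overlapped by 1 mouse, FAD_GF_201 at 234 CPM against the lowest SPF 5xFAD mouse at 230.96 CPM. It was the only one of the 6 genes past the threshold in that comparison, where 12.8% of all genes passed. The call was lost without FAD_GF_181, FAD_GF_182, FAD_GF_184, FAD_SPF_1146 or FAD_SPF_1148, with adjusted p-values up to 0.159. It held under 32 of 38 alternatives, of which 23 were among the 28 fits that left out 1 mouse. An alternative other than leaving out 1 mouse thus lost it too. The difference was -0.32 (SE 0.139 and adjusted p = 0.128) between GF 5xFAD and GF WT mice, where 15.6% of all genes passed. Without FAD_GF_201 it was -0.40 with an adjusted p of 0.0419. In ABX mice the difference between genotypes was -0.34 (SE 0.126 and adjusted p = 0.0658), and it passed under 7 of 38 alternatives, with an adjusted p of 0.00962 without FAD_ABX_1151. It was, in SPF mice, -0.15 (SE 0.152 and adjusted p = 0.785). Between ABX and GF 5xFAD mice, where 10.6% of all genes passed, *Nr3c1* was 0.31 higher in ABX mice (SE 0.126 and adjusted p = 0.111). Without FAD_GF_201 that difference was 0.41 with an adjusted p of 0.0327, and without FAD_ABX_1482 it was 0.39 with an adjusted p of 0.024. No test of a difference in the effect of genotype between housings passed, the smallest adjusted p being 0.872.

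The summed microglia markers were low in the same mice. They held 23600 to 30700 CPM in GF 5xFAD, 29800 to 30500 in SPF 5xFAD and 34400 to 39100 in GF WT mice, and among the GF 5xFAD mice FAD_GF_201 held the most. Between GF and SPF 5xFAD mice, where 12.8% of all genes passed, 5 of 12 tested genes that respond to tissue dissociation were higher in GF mice, among them *Ier2* by 1.06 and *Junb* by 0.80. All 4 tested neutrophil markers were lower in GF than in SPF 5xFAD mice. The part of these genes in the difference was not tested, and in bulk RNA fewer cells of a type and less RNA per cell cannot be told apart. The levels most like those of *Nr3c1* over the 28 mice, among 8929 genes averaging at least 3 log2 CPM, were those of *Man1a* (Pearson's r = 0.94), *Tgfbr1* (r = 0.936) and *Ivns1abp* (r = 0.93).

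Of 14 listed genes for chaperones, coregulators and hormone handling, 12 were tested, and 0 passed in any of the 3 comparisons of genotypes by edgeR, with 0, 2 and 4 at an unadjusted p under 0.05 in SPF, GF and ABX mice, where 4.57%, 15.6% and 14.4% of all genes passed. In 5xFAD mice 1 of 12 passed for GF against SPF and 1 of 12 for ABX against GF, near the 12.8% and 10.6% over all genes. *Hsp90ab1*, a cytosolic HSP90 chaperone that holds the receptor ready for its hormone, averaged 677 ± 41.5 CPM in GF 5xFAD mice (SD, n = 5). It was lower in ABX 5xFAD mice, at 536 ± 46.9 CPM (SD, n = 6), with a log2 fold change of -0.34 (SE 0.0999 and adjusted p = 0.0282). *Ncoa2*, a coactivator of the receptor, had a log2 fold change of -0.59 in GF against SPF 5xFAD mice (SE 0.152 and adjusted p = 0.0119). *Hsd11b1* and *Hsd11b2*, which convert the hormone between its active and inactive form, had too few reads to be tested. The mineralocorticoid receptor *Nr3c2*, the other receptor for corticosterone, averaged between 11 and 16.2 CPM in the 6 groups.

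*Fkbp5* encodes an immunophilin that lowers the affinity of the receptor for its hormone and is itself induced by it. The gene spans chr17:28399095-28517524 on the minus strand. In SPF mice it stood at 90.3, 77.1, 61.6, 104 and 77.7 CPM in WT and at 115, 103 and 113 CPM in 5xFAD mice. In GF mice it stood at 123, 144, 138 and 141 CPM in WT and at 130, 150, 144, 152 and 117 CPM in 5xFAD mice. In ABX mice it stood at 50.2, 70.3, 161, 50.3 and 74.6 CPM in WT, and at a lowest of 97, a median of 134 and a highest of 222 CPM in 5xFAD mice. The GF and ABX 5xFAD groups and the GF WT group were thus high and close together, and SPF WT and ABX WT mice were low apart from WT_ABX_911 at 161 CPM.

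In ABX mice *Fkbp5* rose in 5xFAD against WT by a log2 fold change of 0.82 (SE 0.216 and adjusted p = 0.00931). The groups overlapped only through WT_ABX_911, and without that mouse the difference was 1.23. In a fit of only the groups compared, the call was lost with an adjusted p of 0.0671. Together with *Sgk1* and *Ddit4* it made 3 of 6 genes past the threshold in that comparison, against 14.4% of all genes. The difference was 0.43 (SE 0.254 and adjusted p = 0.508) in SPF and 0.02 (SE 0.235 and adjusted p = 0.97) in GF mice. The interaction of the 5xFAD effect between ABX and GF mice was 0.80 (SE 0.317 and adjusted p = 0.192), in a test that 1.76% of all genes passed. It was 1.22 with an adjusted p of 0.0166 without WT_ABX_911.

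In WT mice *Fkbp5* was 0.73 higher in GF than in SPF mice (SE 0.235 and adjusted p = 0.101). The 4 GF WT mice all lay above the 5 SPF WT mice, and the adjusted p was 0.0176 without WT_ABX_911. It was 0.75 lower in ABX than in GF WT mice, a log2 fold change of -0.75 (SE 0.235 and adjusted p = 0.0503), and without WT_ABX_911 it was -1.15 with an adjusted p of 0.000996.

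*Fkbp5* also differed by numbering style. It ran from 117 to 222 CPM in the 14 libraries of the third style, from 97 to 115 CPM in the 4 of the second and from 50.2 to 161 CPM in the 10 of the first. FAD_ABX_1151, the one ABX 5xFAD library outside the third style, was the lowest of its group. Markers of border-associated macrophages moved with *Fkbp5* as well: *Mrc1*, *Cd163*, *Pf4*, *Lyve1* and *Cbr2* summed to 26.1 to 174 CPM in ABX 5xFAD and 3.74 to 5.64 in ABX WT mice, and all 5 rose in that comparison. Within ABX 5xFAD mice, FAD_ABX_1460 with the highest *Fkbp5* had a marker sum of 58.5, and FAD_ABX_1452 with the highest sum had 133 CPM of *Fkbp5*. FAD_ABX_1151 was the lowest in both, with a sum of 26.1 and 97 CPM of *Fkbp5*. In GF WT mice, with *Fkbp5* at 123 to 144 CPM, the sum was 10.5 to 32.9, beside 3.4 to 8.09 in SPF WT mice. Of the 5 markers, 3 passed as higher in GF than in SPF WT mice, where 1.62% of all genes passed. Likewise 3 passed as lower in ABX than in GF WT mice, where 6.88% of all genes passed. The part of these cells or of the style in the results was not tested. Among the genes most like *Fkbp5* over the 28 mice were *Mpeg1* (r = 0.801) and *Psap* (r = 0.789).

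*Sgk1* encodes a kinase named for its induction by serum and glucocorticoids, which acts on ion channels, transporters and FOXO factors. The gene spans chr10:21882184-21999903 on the plus strand (GRCm38). RefSeq lists promoter windows for 5 of the 6 genes that could be searched here, 12 windows of 300 bases in all, each from 250 bases before to 50 after a start site. They were searched on both strands for the response element as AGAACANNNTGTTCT, for its core ACANNNTGT and for the half-site AGAACA. The 1 window with the whole element belongs to *Sgk1*. Its 250 bases before the start, at chr10:21993640-21993889 (GRCm38.p6, plus strand), lie in an intron of the longer *Sgk1* transcripts and overlap no annotated exon. They are shown because they hold the whole element, and the capitals mark it, 189 to 175 bases before the start site.
Sgk1: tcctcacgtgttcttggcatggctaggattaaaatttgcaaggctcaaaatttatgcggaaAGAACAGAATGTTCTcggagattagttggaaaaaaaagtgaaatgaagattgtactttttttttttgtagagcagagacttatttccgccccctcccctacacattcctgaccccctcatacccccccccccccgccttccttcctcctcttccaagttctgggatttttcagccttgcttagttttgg

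The whole element occurred in 3 of 32851 promoter windows, or 0.00913%, the others belonging to *Acnat2* and *Gm35041*. The core occurred in 6.85% and the half-site in 19% of windows. One of the other *Sgk1* windows held a core without the whole element, and 2 others held 1 half-site each. One of 3 windows of *Tsc22d3* held 1 half-site, and the windows of *Fkbp5*, *Klf9* and *Ddit4* held none of these letters. The window of *Sgk1* shown above holds 3 half-sites, of which 2 form the element.

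In SPF mice *Sgk1* stood at 945, 922, 686, 1007 and 950 CPM in WT and at 822, 763 and 973 CPM in 5xFAD mice. In GF mice it stood at 1145, 1176, 1091 and 1099 CPM in WT and at 876, 930, 1033, 1048 and 1009 CPM in 5xFAD mice. In ABX mice it stood at 1010, 1135, 1318, 824 and 1121 CPM in WT, and its lowest, median and highest values in 5xFAD mice were 711, 843 and 960 CPM. The highest mean was that of GF WT mice, 1128 ± 40.2 CPM (SD, n = 4), and no gap between neighbouring group means was larger than the larger SD.

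*Sgk1* fell in ABX 5xFAD against ABX WT mice by 0.36 on the log2 scale (SE 0.0995 and adjusted p = 0.0139). WT_ABX_923 was the only ABX WT mouse within the range of the ABX 5xFAD mice. Without WT_ABX_911 the difference was -0.27 with an adjusted p of 0.0814, and without WT_SPF_928, WT_ABX_910 and WT_ABX_911, left out after their values were seen, it was -0.22 with an adjusted p of 0.262. The call was also lost in a fit of only the groups compared (adjusted p = 0.0552) and without FAD_ABX_1151 and FAD_ABX_1482 (-0.29 and adjusted p = 0.0707). Summed microglia markers were lower in these 5xFAD mice too, at 27500 to 32900 CPM against 34000 to 40500 CPM in ABX WT mice, without overlap, and *P2ry12*, *Tmem119* and *Sall1* fell while *Cx3cr1* and *Csf1r* did not pass. Their part in the calls of this comparison was not tested. In GF mice the 5 5xFAD mice lay below the 4 WT mice without overlap, with a log2 fold change of -0.20 (SE 0.11 and adjusted p = 0.232). In SPF mice it was -0.08 (SE 0.121 and adjusted p = 0.885). In WT mice, GF mice were 0.32 higher than SPF mice (SE 0.11 and adjusted p = 0.122), also without overlap, and ABX mice 0.26 higher than SPF mice (SE 0.104 and adjusted p = 1). The genes most like *Sgk1* were *Sult1a1* (r = 0.748), a sulfotransferase from the fixed list of other induced genes, *Cnot8* (r = 0.736) and *Mis18a* (r = 0.736).

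*Tsc22d3* encodes GILZ, a leucine zipper protein that carries part of the anti-inflammatory action of glucocorticoids. The gene spans chrX:140539528-140600659 on the minus strand. In SPF mice it stood at 85.7, 105, 84.9, 230.8 and 69.5 CPM in WT and at 39.4, 47.7 and 73.8 CPM in 5xFAD mice. In GF mice it stood at 125, 184.9, 130.0 and 176 CPM in WT and at 87, 77.2, 121, 124 and 132 CPM in 5xFAD mice. In ABX mice it stood at 86.9, 234, 443, 90.7 and 87.6 CPM in WT, and at a lowest of 56.6, a median of 99.5 and a highest of 153 CPM in 5xFAD mice. One SPF WT mouse and 2 ABX WT mice were thus far above the others of their groups.

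The mean of *Tsc22d3* was lower in 5xFAD than in WT mice in each housing, and none of these differences passed the threshold with all mice. The log2 fold change was -1.10 (SE 0.442 and adjusted p = 0.201) in SPF, -0.51 (SE 0.385 and adjusted p = 0.423) in GF and -0.92 (SE 0.349 and adjusted p = 0.0774) in ABX mice. The ABX difference passed under 6 of 38 alternatives, with an adjusted p of 0.0355 without WT_ABX_932. Without WT_SPF_928, WT_ABX_910 and WT_ABX_911, which were left out after their values were seen, the difference was -0.67 in SPF and 0.18 in ABX mice. In 5xFAD mice it was 1.01 higher in GF than in SPF mice (SE 0.44 and adjusted p = 0.132), and these 2 groups did not overlap. Without the 3 WT mice, which are in neither group but share the estimate of the spread, that adjusted p was 0.0116. The SPF 5xFAD libraries that were lowest in *Tsc22d3* are those with the neutrophil markers, and FAD_ABX_1151, the other such library, was the lowest of ABX 5xFAD mice. The part of these cells was not tested. The genes most like *Tsc22d3* were *Tagap* (r = 0.895), *Nfkbia* (r = 0.833), which encodes the inhibitor of NF-kappaB and is itself induced by glucocorticoids, and *Sult1a1* (r = 0.811).

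*Ddit4* encodes REDD1, a stress protein that restrains mTOR signalling. The gene spans chr10:59949675-59951770 on the minus strand. In SPF mice it stood at 1.55, 4.07, 3.91, 27.4 and 2.81 CPM in WT and at 0.435, 1.82 and 5.06 CPM in 5xFAD mice. In GF mice it stood at 2.69, 4.1, 1.72 and 3.87 CPM in WT and at 1.12, 1.18, 1.43, 6.74 and 1.87 CPM in 5xFAD mice. In ABX mice it stood at 2.52, 29.3, 25.3, 2.99 and 1.55 CPM in WT, and its lowest, median and highest values in 5xFAD mice were 1.62, 2.16 and 3.51 CPM. WT_SPF_928, WT_ABX_910 and WT_ABX_911 stood apart at 25.3 to 29.3 CPM, and the other 25 mice held at most 6.74 CPM.

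*Ddit4* fell in ABX 5xFAD against ABX WT mice by 2.34 on the log2 scale (SE 0.733 and adjusted p = 0.0297), although the groups overlapped. The call was lost without any one of 5 mice. Without WT_ABX_910 the adjusted p was 0.135 and without WT_ABX_911 0.116, and without FAD_ABX_1453, FAD_ABX_1460 or FAD_ABX_1482 it was 0.0574, 0.0556 and 0.0564. Without the first pair and WT_SPF_928 the log2 fold change was 0.05 with an adjusted p of 0.982. The call was also lost with voomWithQualityWeights (-1.27 and adjusted p = 0.417) and without FAD_ABX_1151 and FAD_ABX_1482 (-2.19 and adjusted p = 0.0892). In SPF mice the difference was -1.70 (SE 0.927 and adjusted p = 0.44), and -0.32 without WT_SPF_928 and the other 2 mice. The genes most like *Ddit4* were *Tagap* (r = 0.841), *Tsc22d3* itself (r = 0.77) and *Fam46a* (r = 0.755).

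*Klf9*, a zinc finger transcription factor that is a direct target of the receptor in many tissues, was near the limit of detection. The gene spans chr19:23141226-23166911 on the plus strand. It had between 0 and 75 reads per library and group means between 0.721 CPM in ABX WT and 2.14 CPM in GF 5xFAD mice. WT_GF_231 and FAD_ABX_1482 held 0 reads, which allows levels of up to 0.198 and 0.193 CPM, by counting error only. The group means were all closer to their neighbours than the larger SD, and no comparison passed, the smallest adjusted p being 0.263 for 5xFAD against WT in ABX mice (log2 fold change 1.24, SE 0.71). Reads per library ran from 0 to 66 within ABX 5xFAD mice alone. The genes most like it were *Ndst2* (r = 0.767), *Lonrf3* (r = 0.74) and *Hmgcs1* (r = 0.734).

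**Figure D2:**
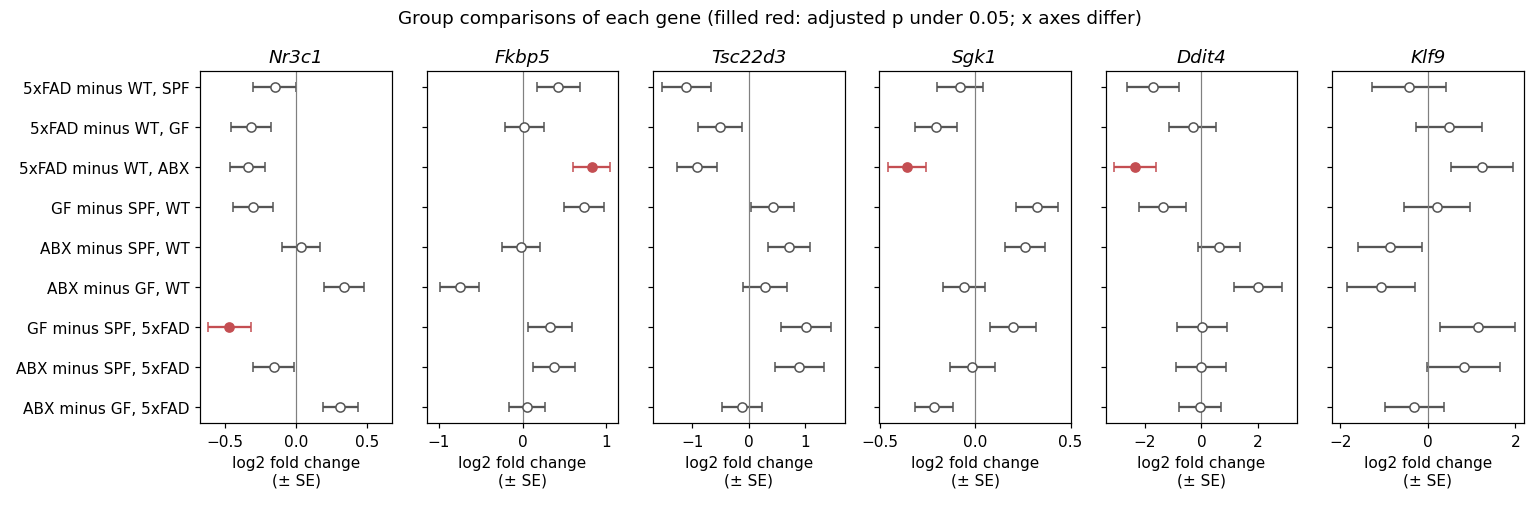
Log2 fold changes (x axes, which differ between genes) with SE bars for the 6 genes in the 9 comparisons of 2 groups (y axis). Filled red points passed the threshold: *Fkbp5*, *Sgk1* and *Ddit4* for 5xFAD against WT in ABX mice, and *Nr3c1* for GF against SPF in 5xFAD mice.

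The other comparisons of the 6 genes are given by their counts. For 5xFAD against WT, edgeR called 0 of 6 in SPF mice, where 4.57% of all genes passed, and 0 of 6 in GF mice, where 15.6% passed. In each, 1 of the 6 had an unadjusted p under 0.05, and DESeq2 and voomWithQualityWeights also called 0. For housing in WT mice, edgeR called 0 of 18 results for the 6 genes, 7 had an unadjusted p under 0.05, and DESeq2 called 2 and voomWithQualityWeights 5. Over all genes, 1.62% passed between GF and SPF, 0% between ABX and SPF and 6.88% between ABX and GF WT mice. For housing in 5xFAD mice, *Nr3c1* in GF against SPF mice was the 1 call of 18, also with DESeq2 and voomWithQualityWeights. Over all genes, 12.8% passed between GF and SPF, 0% between ABX and SPF and 10.6% between ABX and GF 5xFAD mice. Of 18 interactions, 0 passed in edgeR, DESeq2 or voomWithQualityWeights and 1 had an unadjusted p under 0.05. Over all genes, 0% passed for the interaction of genotype with GF against SPF and 0% for that with ABX against SPF. In these 4 comparisons with 0 calls by edgeR over all genes, 687 genes for ABX against SPF in WT, 1085 for the same in 5xFAD, 1304 and 1032 for both interactions had an unadjusted p under 0.05, and DESeq2 called 2, 8, 25 and 1 and voomWithQualityWeights 0, 134, 116 and 14. The comparisons with ABX WT mice share those 5 mice, and the others share groups likewise.

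*Fkbp5*, *Sgk1* and *Tsc22d3* varied together among mice of the same group. The deviations of log2 CPM from the group mean were compared for the 15 pairs of genes over 28 mice, with 100000 permutations of the mice within their groups, two-sided. For *Fkbp5* and *Sgk1*, Pearson's r was 0.691 (permutation p = 0.00182, adjusted p = 0.0137) and Spearman's rho 0.611 (permutation p = 0.00244, adjusted p = 0.0122). Without the 2 mice farthest out in *Fkbp5*, WT_ABX_911 and FAD_ABX_1460, r was 0.701. For *Tsc22d3* and *Sgk1*, r was 0.669 (permutation p = 0.00605, adjusted p = 0.0227), rho 0.673 (permutation p = 0.00129, adjusted p = 0.00967) and r without WT_ABX_911 and WT_SPF_928 0.566. For *Fkbp5* and *Tsc22d3*, r was 0.698 (permutation p = 0.00405, adjusted p = 0.0203), rho 0.492 (permutation p = 0.0235, adjusted p = 0.0705) and r without WT_ABX_911 and FAD_ABX_1460 0.577.

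These relations rested in part on single mice. Without WT_SPF_928, WT_ABX_910 and WT_ABX_911, r was 0.567 for *Fkbp5* and *Sgk1*, 0.502 for *Tsc22d3* and *Sgk1* and 0.316 for *Fkbp5* and *Tsc22d3*, with adjusted permutation p-values of 0.08, 0.08 and 0.542. Without FAD_ABX_1151 and FAD_ABX_1482, the adjusted permutation p-values were 0.0765, 0.081 and 0.078. The 3 mice stand apart in *Ddit4*, so its relation with *Tsc22d3* is given for the other 25 mice, where r was 0.61 (permutation p = 0.0043, adjusted p = 0.0645) and rho 0.703 (adjusted p = 0.0171 over the 15 pairs by permutation). For *Sgk1* and *Ddit4*, rho over the 28 mice was 0.565 (adjusted permutation p = 0.0339) and the adjusted permutation p of Pearson's r 0.12, and over the 25 mice rho was 0.30 (adjusted permutation p = 0.422). No relation of *Nr3c1* with the other 5 genes passed. With *Ddit4* the unadjusted permutation p was 0.0398 for r and 0.032 for rho, and the adjusted values were 0.119 and 0.08, or 0.272 and 0.327 over the 25 mice. For the other 4 genes r ran from -0.076 with *Fkbp5* to 0.414 with *Klf9* (adjusted permutation p = 0.882 and 0.202). No relation of the 6 genes with the library total passed, the smallest adjusted permutation p over the 6 being 0.624.

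**Figure D3:**
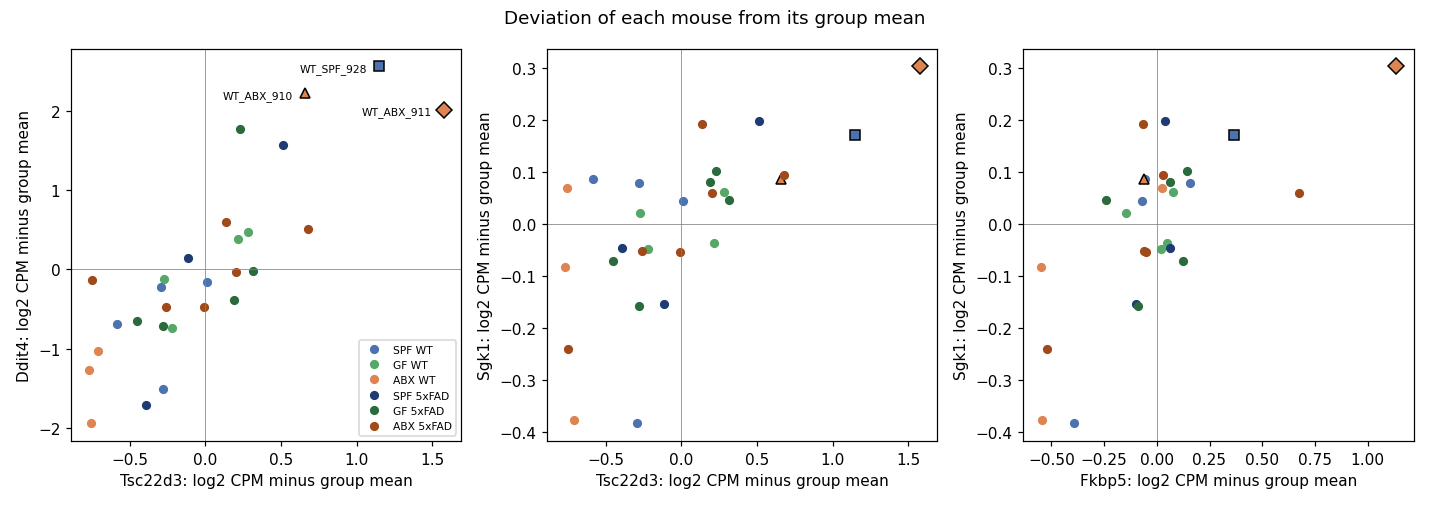
Each point is 1 of 28 mice, placed by the deviation of its log2 CPM from the mean of its group for *Tsc22d3* or *Fkbp5* (x axes) and *Ddit4* or *Sgk1* (y axes). WT_SPF_928, WT_ABX_910 and WT_ABX_911 (outlined) lie at the upper right for *Tsc22d3* and *Ddit4*, and in the other panels mice high in one gene tend to be high in the other.

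WT_SPF_928, WT_ABX_910 and WT_ABX_911, picked out for their *Ddit4* levels, lay above the other 7 SPF WT and ABX WT mice in 5 of the 18 tested genes of the list of other induced genes and below them in 0, beside 1.2% above and 0.974% below over all genes. The 5 were *Per1*, *Nfkbia*, *Zbtb16*, *Dusp1* and *Glul*, and values are given for the first pair, chosen after they were seen. *Per1*, a clock gene with glucocorticoid response elements, stood at 22.2, 18.6 and 33.7 CPM in these mice and between 4.18 and 7.54 CPM in the other SPF WT and ABX WT mice. *Nfkbia* stood at 158, 147 and 155 CPM in them and between 72.7 and 110 CPM in the others. Both genes thus separated these 3 mice from the other 7 SPF WT and ABX WT mice, as *Tsc22d3* and *Ddit4* did. Among the 15 clock genes, *Bhlhe41*, a repressor of the clock, separated them in the other direction, at 90.2, 106 and 104 CPM against 111 to 204 CPM in the other 7 mice. *Arntl* and *Dbp* did not separate them: *Arntl* was 26.8, 25.9 and 27.2 CPM in these mice and ran from 23.1 to 33.3 CPM in the others, and *Dbp* was 7.02, 6.61 and 4.58 CPM against 4.35 to 8.76 CPM. *Nr3c1* itself was 289, 291 and 310 CPM, against 272 to 305 CPM.

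Among the 18 tested genes of the list of other induced genes, WT_SPF_928 held the highest value of its group in 8, WT_ABX_911 in 8 and WT_ABX_910 in 2, against 19%, 23% and 16% of all tested genes. Of 12 tested genes that respond to the dissociation of tissue, they were highest in 5, 3 and 0. The sum of 5 astrocyte markers was the highest of its group in WT_SPF_928, at 268 CPM, and in WT_ABX_911, at 329. Neither the handling of these mice nor the share of other cells in their libraries was tested as a source of the values.

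**Figure D4:**
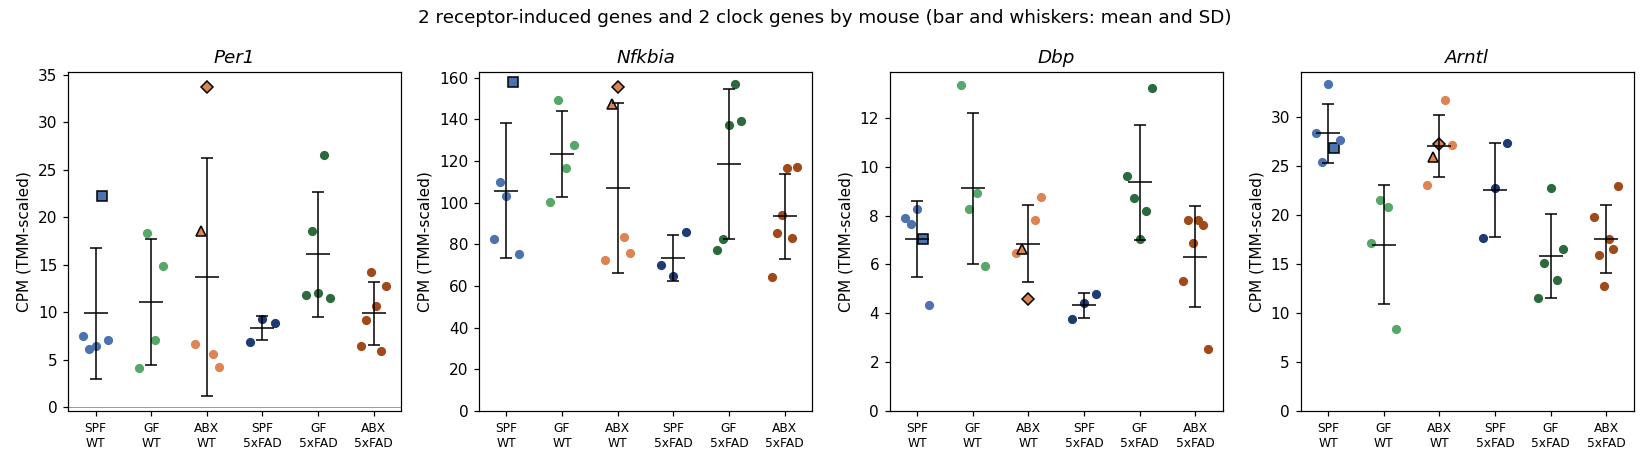
CPM of the induced genes *Per1* and *Nfkbia* and of the clock genes *Dbp* and *Arntl* (linear y axes) in each mouse by group (x axis), with mean and SD as bar and whiskers. The outlined mice WT_SPF_928 (square), WT_ABX_910 (triangle) and WT_ABX_911 (diamond) are the highest SPF WT and ABX WT mice in *Per1* and *Nfkbia* and lie among the others in *Dbp* and *Arntl*.

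The list of 21 other genes known to be induced through the receptor, of which 18 were tested, held calls in both directions. In 5xFAD against WT mice 4 rose and 0 fell in SPF, 3 rose and 1 fell in GF, and 5 rose and 1 fell in ABX mice, with medians of 0.15, 0.12 and 0.29 against -0.03, -0.03 and -0.01 over all genes. Over all genes 4.57%, 15.6% and 14.4% passed, so the 4 of 18 in GF mice are near the background. The metallothionein *Mt1*, which binds zinc and is also induced by metals, rose in all 3 housings, from 25.1 to 55, from 38.2 to 98.5 and from 19.5 to 63.9 CPM in the means of WT and 5xFAD mice. Its log2 fold changes were 1.13 (SE 0.238 and adjusted p = 0.00253), 1.37 (SE 0.229 and adjusted p = 6.86e-05) and 1.71 (SE 0.211 and adjusted p = 8.01e-07). The cell cycle inhibitor *Cdkn1a* rose in GF mice by 0.48 (SE 0.16 and adjusted p = 0.0373) and in ABX mice by 0.72 (SE 0.146 and adjusted p = 0.000837).

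The metallothionein *Mt2* rose in ABX mice by 2.79 (SE 0.766 and adjusted p = 0.0125), from 0.132 to 0.936 CPM. In ABX mice *Glul*, the glutamine synthetase, fell in 5xFAD against WT by 0.56 on the log2 scale (SE 0.118 and adjusted p = 0.00138). *Cebpd*, a transcription factor of the acute phase response, fell in GF mice by 0.51 (SE 0.139 and adjusted p = 0.0112). *Cd163*, a scavenger receptor of macrophages, averaged 23.1 CPM in ABX 5xFAD and 3.14 CPM in SPF 5xFAD mice and had 0 reads in all 10 SPF WT and ABX WT mice. Its GF means were 3.67 CPM in WT and 4.37 CPM in 5xFAD mice, and GF WT mice were above SPF WT mice (adjusted p = 0.0117). It also belongs to the list of border-associated macrophage markers, which moved with it. *Anxa1*, an anti-inflammatory protein that neutrophils also carry, averaged 5.07 CPM in SPF 5xFAD mice, which hold the neutrophil markers, and 2.38 CPM in ABX 5xFAD mice, against 0 reads in SPF WT mice and 0.0238 CPM in ABX WT mice. The transcription factor *Zbtb16* averaged 2.2 CPM in SPF 5xFAD and 0.00862 CPM in SPF WT mice, and 3.75 CPM in GF 5xFAD and 0.216 CPM in GF WT mice. The part of either cell type in these values was not tested.

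Of 12 inflammatory genes known to be repressed through the receptor, 10 were tested. The chemokine genes *Ccl3* and *Ccl4* rose in 5xFAD mice in all 3 housings, *Ccl3* by 2.72 (SE 0.301 and adjusted p = 1.79e-07) in SPF, 3.58 (SE 0.317 and adjusted p = 1.35e-09) in GF and 2.98 (SE 0.279 and adjusted p = 4.52e-09) in ABX mice. Both were also higher in GF than in SPF 5xFAD mice, *Ccl3* by 1.04 (SE 0.31 and adjusted p = 0.0265) and *Ccl4* by 1.17 (SE 0.369 and adjusted p = 0.0354). *Il6*, an inflammatory cytokine, fell in ABX 5xFAD against ABX WT mice by 0.68 (SE 0.23 and adjusted p = 0.0444). The other 7 tested genes of this list passed in no comparison of genotypes. For 5xFAD against WT the list thus held 2 calls of 10 in SPF mice, beside 4.57% over all genes, 2 in GF mice, beside 15.6%, and 3 in ABX mice, beside 14.4%, and it held 2 of 10 between GF and SPF 5xFAD mice, beside 12.8%. The median log2 fold change of the 10 genes was 1.30, 1.07 and 0.64 for 5xFAD against WT in SPF, GF and ABX mice, beside -0.03, -0.03 and -0.01 over all genes, and 0.18 between GF and SPF 5xFAD mice, beside 0.02.

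Among 8 paralogs of the 6 genes, 6 were tested. *Tsc22d1*, a paralog of *Tsc22d3*, rose in 5xFAD mice in all 3 housings. Its log2 fold change was 1.85 (SE 0.225 and adjusted p = 1.04e-06) in SPF, 2.65 (SE 0.231 and adjusted p = 9.41e-10) in GF and 1.76 (SE 0.199 and adjusted p = 1.88e-07) in ABX mice, where the values of *Tsc22d3* were -1.10, -0.51 and -0.92. *Sgk3*, a paralog of *Sgk1*, fell with it in ABX 5xFAD against ABX WT mice, by 0.41 on the log2 scale (SE 0.13 and adjusted p = 0.0308).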

How the data were processed

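Per the labels and the methods of the study, the authors prepared cDNA with the SMARTer v4 kit and libraries with Nextera XT, which do not mark strand, aligned reads with STAR 2.7.2 and deposited raw read counts per gene from featureCounts 1.6.2. The methods name the mouse genome GRCm38, whereas the processing notes name the human build GRCh38.p12. The gene positions used here are those of the mouse build. The 92 rows of spike-in controls, which together held at most 12 reads in a library, were left out.

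Genes with at least 10 counts in enough libraries and 15 in all were kept with filterByExpr, scaled by TMM and fitted with 1 term per group over the 28 mice by edgeR 4.0.16 (R 4.3.3). Group contrasts, their interactions and the F test used the quasi-likelihood test with Benjamini-Hochberg adjustment over all 15298 genes, and the steps were tested on simulated data. The alternatives were other scalings and filters, DESeq2 1.42.0, voomWithQualityWeights of limma 3.58.1, a fit of only the groups compared, FAD_GF_201 as a WT mouse, and leaving out mice. Nothing in the sources pairs mice, and p-values rest on the spread between mice.

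The 6 genes and the gene lists were chosen with earlier results of these data known. Of each list, up to 4 genes past the threshold with the highest absolute log2 fold change were named in a comparison, and other genes named were chosen after their values were seen. The genes named as most like each of the 6 genes are from the 3 with the highest Pearson's r of log2 CPM. A gene among those most like *Fkbp5* and a microglia marker are not reported here, and the marker was left out of the sum.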

Additional observations from a re-analysis of the deposited data

Results flagged for a closer look

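In each group of 4 to 6 mice, the highest and lowest values of the 6 genes were tested on log2 CPM for a gap to the nearest other mouse with Dixon's test, which chance passes in about 5% of groups. Of 30 sets of values, 2 passed on this scale. *Sgk1* was low in WT_SPF_926, at 685.9 CPM against 922.2 to 1007 CPM in the other SPF WT mice (gap 0.772 of the range on log2 CPM, critical value 0.71). *Ddit4* was high in FAD_GF_185, at 6.741 CPM against 1.122 to 1.869 CPM in the other GF 5xFAD mice (gap 0.723 of the range on log2 CPM). On the CPM scale, which was tried after the values were seen, 6 of the 30 sets passed. They were these 2, with gaps of 0.737 and 0.867 of the range, *Ddit4* and *Tsc22d3* in WT_SPF_928 with gaps of 0.903 and 0.782, *Fkbp5* in WT_ABX_911 with 0.779, and *Fkbp5* in FAD_ABX_1460 with 0.637 against a critical value of 0.625. The SPF 5xFAD group of 3 mice was not tested.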

How the results depend on the processing

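Of the 6 genes, the number past the threshold for 5xFAD against WT stayed at 0 in SPF mice under all alternatives. In GF mice it went from 0 to 2 with library size alone and to 1 with FAD_GF_201 as a GF WT mouse, and was 0 to 1 when each mouse was left out in turn, being 1 without FAD_GF_201. In ABX mice it went from 3 to 5 with library size alone, to 1 in a fit of only the groups compared and to 1 without WT_SPF_928, WT_ABX_910 and WT_ABX_911, a choice made after seeing the data, and was 1 to 4 when each mouse was left out, being 1 without WT_ABX_911.

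Of 18 housing results in WT mice, 0 passed, against 1 with no low-count filter, 1 with at least 10 counts in every library, 2 with DESeq2, 5 with voomWithQualityWeights, 4 in a fit of only the groups compared, 1 without FAD_ABX_1151 and FAD_ABX_1482, 1 with FAD_GF_201 as a GF WT mouse, 2 without the 3 WT mice and 0 to 2 when each mouse was left out, being 2 without WT_ABX_911. Of 18 in 5xFAD mice, 1 passed, against 2 with library size alone, with FAD_GF_201 as a GF WT mouse and without the 3 WT mice, and 0 to 2 when each mouse was left out. Between GF and SPF 5xFAD mice, *Nr3c1* passed under 32 of 38 alternatives and *Tsc22d3* under 2, so an equal count need not be the same gene. Of 18 interactions, 0 passed, against 1 without the 3 WT mice and 0 to 1 when each mouse was left out, being 1 without WT_ABX_911. Of 15 pairs of genes, 4 were related within groups by Pearson's r, against 1 without FAD_ABX_1151 and FAD_ABX_1482, 0 without the 3 WT mice and 1 to 5 when each mouse was left out, being 1 without FAD_ABX_1151 and 2 without WT_ABX_911. The cause of these changes was not tested.

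Of the 20 log2 fold changes with an unadjusted p under 0.05, 3 reversed without the 3 WT mice: *Ddit4* to 0.0451 and *Tsc22d3* to 0.178 for 5xFAD against WT in ABX mice, and *Ddit4* to -0.40 for ABX against GF WT mice. Of the other 52, 22 changed sign under some alternative, among them *Tsc22d3* for ABX against GF WT mice, from 0.29 to -0.805 without the 3 WT mice. *Klf9* had 0 to 75 and *Ddit4* 8 to 636 reads per library. No paired analysis was possible because the groups share no replicate numbers.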

Other observations

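Genes of the circadian clock and genes that respond to tissue dissociation were followed because glucocorticoids, time of day and handling act on some of the same genes. Of 15 clock genes, 0 passed in edgeR for 5xFAD against WT in SPF mice, where 3 had an unadjusted p under 0.05 and 4.57% of all genes passed, and 2 passed in GF and 2 in ABX mice, near the 15.6% and 14.4% over all genes. In GF mice *Cry1*, a repressor of the clock, fell by 0.68 on the log2 scale with SE 0.19 (adjusted p = 0.0133), and the output gene *Hlf* fell by 1.05 with SE 0.353 (adjusted p = 0.0403). In ABX mice *Arntl*, which drives the clock with *Clock*, fell by 0.62 with SE 0.189 (adjusted p = 0.0247), and *Cry2* rose by 0.60 with SE 0.192 (adjusted p = 0.034). In 5xFAD mice *Dbp* was higher by 1.11 with SE 0.313 (adjusted p = 0.0194), and *Clock* lower, with a log2 fold change of -0.83 and SE 0.191 (adjusted p = 0.00572), in GF against SPF housing. The time of day at which each mouse was killed is not given in the sources used here.

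Of 12 tested dissociation genes, edgeR called 1 for 5xFAD against WT in SPF mice, 3 in GF and 2 in ABX mice, beside 4.57%, 15.6% and 14.4% of all genes. *Btg2*, an inhibitor of proliferation, fell in SPF mice by 0.42 with SE 0.121 (adjusted p = 0.0432). *Ier2* and *Atf3* rose in GF and ABX mice and *Ier3* in GF mice. *Atf3*, a stress-induced transcription factor, rose by 1.87 with SE 0.24 (adjusted p = 1.23e-06) in GF and by 1.51 with SE 0.214 (adjusted p = 7.97e-06) in ABX mice.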
